A study of Mus musculus with 23 samples.

Results

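Gm8615, Gm9625, Hmgb1, Slc4a4 and Osr2 were followed through all 23 RNA-seq libraries of primary mouse embryonic fibroblasts (MEFs) that carried different versions of the glucocorticoid receptor (GR). The genes were chosen from these same data, because cultures with the D allele of GR had been seen to differ from the other cultures in Gm8615, Slc4a4 and Osr2, because Gm9625 in a GRwt/wt vehicle library had looked like GRD/D, and because Hmgb1 spans the position of Gm8615. They are 5 of the 55487 genes in the deposited table, and all 5 were among the 15748 genes expressed highly enough to be tested. Since the D-allele difference chose them, it is described below for these genes without a test, as are the comparisons of Gm9625 that rest on the GRwt/wt vehicle group, while the effects of dexamethasone (Dex) and of the L change were tested.

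The cells were FVB/NJ MEFs, isolated from embryos of heterozygous crosses and cultured without transformation. GRwt/wt cells had the unmodified receptor. GRD/D cells were homozygous for the D change, alanine to threonine in the DNA-binding domain, known from the GRdim mouse. GRL/L cells were homozygous for the L change, isoleucine to alanine in the ligand-binding domain, and GRD+L/D+L cells carried D and L in the same protein. Mice with L and with D+L arose from the same CRISPR/Cas9 injections into heterozygous GRD zygotes and were then backcrossed to FVB/NJ, while the GRD colony was bred separately. Cells received vehicle or 10 nM Dex, a synthetic GR ligand, for 5 h. Each of the 8 groups had 3 libraries, apart from GRD/D vehicle with 2, and 11 libraries carried the D allele while 12 did not. Replicates of a genotype stem from separate mice, and vehicle and Dex libraries of 1 culture share their cells and are not independent.

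GR is a nuclear receptor that binds ligand in the cytoplasm, moves to the nucleus and controls transcription at DNA sites, often as a dimer. Processed pseudogenes such as Gm8615 and Gm9625 are copies of a spliced mRNA that were pasted elsewhere in the genome, and their reads can be hard to tell from those of the parent gene. HMGB1 is an abundant chromatin protein that acts as an alarm signal when released from cells. SLC4A4 carries sodium and bicarbonate together across the plasma membrane and so controls intracellular pH. OSR2 is a zinc-finger transcription factor of palate, limb and joint mesenchyme.

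Library totals lay between 16.5 M and 23.1 M counts. All 10 fibroblast markers checked were expressed, with a summed level of at least 40526 CPM (read counts scaled by TMM to a common library size) in every library. GRwt/wt vehicle 1 stood apart, since its highest Spearman correlation with any other library was 0.916 while every other library reached at least 0.973, and it held 4.08 CPM of Nr3c1, the gene of GR, against 44.5 to 265 CPM elsewhere. GRwt/wt vehicle 3 had 6765 CPM summed over 14 macrophage markers, against 20.6 and 44.6 CPM in the other GRwt/wt vehicle libraries. Where leaving out either library ended a call of a named gene, turned its direction or moved its value strongly, that is given beside the result. How far it moved the numbers of genes called is given in the last section. In bulk samples, fewer cells of a type and less RNA per cell cannot be told apart.

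The 5 genes did not share 1 pattern. Gm8615 alone kept the D-allele libraries and the others widely apart, Slc4a4 and Osr2 leaned apart with a small overlap, Gm9625 followed a different division of the libraries, and Hmgb1 did not separate them. Over all 15748 genes, the gap between the nearest D-allele and other library was computed on the log2 CPM scale, with values below 0 for overlap. Only 3 genes had no overlap over the 23 libraries, Gm8615, Gnpda1 and Caprin1, which is 0.0191% of the genes. Without GRwt/wt vehicle 3 there were 17. The gap of Gm8615 was 4.90, the widest of all, that of Gnpda1 was 0.10, and that of Caprin1 (named after its values were seen) was 0.001. Slc4a4 had a gap of -0.07 (rank 13), Osr2 of -0.25 (rank 423), Hmgb1 of -0.41 (rank 2058) and Gm9625 of -5.49 (rank 15461), where the median gene had -0.86.

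**Figure D1:**
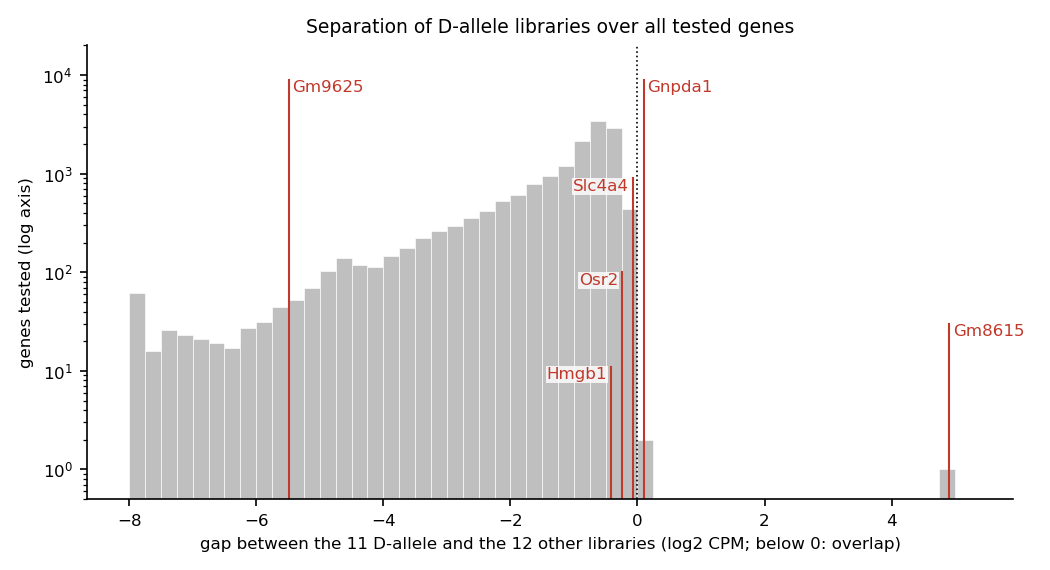
Number of tested genes (log axis) by the gap in log2 CPM between the 11 D-allele libraries and the 12 others, in bins of 0.25, with genes below -8 counted in the leftmost bin. Lines mark the 5 genes and Gnpda1: Gm8615 lies far to the right at 4.90, Gnpda1 just above 0, and the other 4 below 0.

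**Figure D2:**
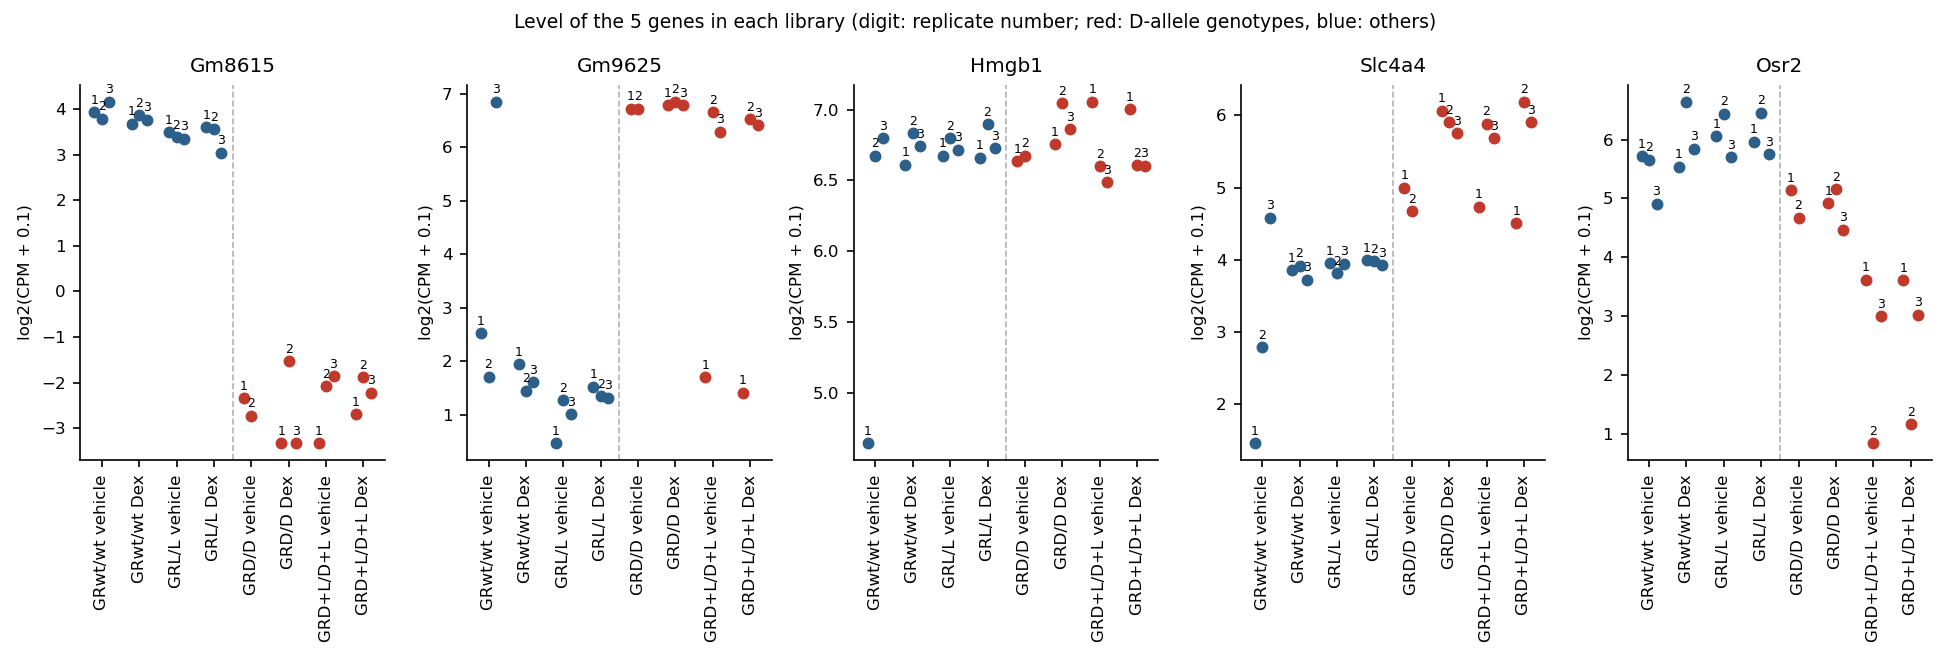
Level of each gene, as log2(CPM + 0.1), in every library by group, with the replicate number above each point and D-allele genotypes in red to the right of the dashed line. Gm8615 falls into separate bands, Gm9625 has 2 red points low and 1 blue point high, and the lowest Hmgb1 point is GRwt/wt vehicle 1.

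Gm8615 (ENSMUSG00000024437, GRCm38 chr5:149155108-149156209, minus strand) is annotated as a transcribed processed pseudogene. It lies within the spans of Hmgb1 and Mm2pr on the same strand and shares no exon with either. Its transcript matched Gnpda1 at 99.1% identity over 753 aligned bases with 7 mismatches. Gnpda1 encodes glucosamine-6-phosphate deaminase 1, which turns glucosamine 6-phosphate into fructose 6-phosphate, and lies on chr18:38327535-38339003, minus strand, 1.07 Mb from Nr3c1.

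Gm8615 was close to absent in every library with the D allele. It had 2 and 1 counts in GRD/D vehicle, 0, 5 and 0 counts in GRD/D Dex, 0, 3 and 3 counts in GRD+L/D+L vehicle and 1, 3 and 2 counts in GRD+L/D+L Dex. The other libraries held 153 to 393 counts each. In CPM, the D-allele libraries ran from 0 through a median of 0.0985 to 0.246, and the other 12 from 8.14 through a median of 12.3 to 17.8. No library of either kind came near the other, in vehicle or in Dex.

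In groups, Gm8615 was at 15.6 ± 2.08 CPM (SD, n = 3) in GRwt/wt vehicle, 13.5 ± 0.848 (n = 3) in GRwt/wt Dex, 10.5 ± 0.605 (n = 3) in GRL/L vehicle and 10.6 ± 2.14 (n = 3) in GRL/L Dex. With the counts of a group summed, Gm8615 in vehicle was 207-fold lower in GRD/D than in GRwt/wt (3 against 923 counts, exact 95% interval 70.7 to 1007) and 102-fold lower in GRD+L/D+L than in GRL/L (6 against 588 counts, 46.5 to 279). With Dex the ratio was 152 for the former pair (5 against 775 counts, 65.1 to 471) and 94.5 for the latter (6 against 620 counts, 43.2 to 258). These intervals cover counting error only, leave out the spread between cultures and are no test of the difference, which chose the gene. Between genotypes without the D allele, the LFC (log2 fold change) of GRL/L against GRwt/wt was -0.56 in vehicle (SE 0.45, adjusted p = 0.375, edgeR). With Dex it was -0.35 (SE 0.45, adjusted p = 0.674), and neither difference passed the test. Every GRL/L library was nevertheless below every GRwt/wt library, within and across treatments. The error of the fit pools the spread of all groups, including the D-allele groups in which Gm8615 was close to absent. With only the groups compared in the fit, the vehicle LFC was -0.57 (adjusted p = 0.241, edgeR). Here and below, a gene is called where the adjusted p was 0.05 or less and the LFC 1 or more in size.

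Gnpda1, the near-identical parent of Gm8615, moved the other way. Its level was 24.2 to 42.9 CPM in the libraries without the D allele and 45.8 to 75.7 CPM in those with it. GRD/D held 68.2 and 73.4 CPM in vehicle and 75.5, 75.7 and 71.2 CPM with Dex. The lowest D-allele values, 50.2 and 45.8 CPM, were those of GRD+L/D+L culture 1 in vehicle and Dex, and the highest value without the D allele, 42.9 CPM, was that of GRwt/wt vehicle 1. Because Gnpda1 can share reads with Gm8615, its difference is described without a test, like that of Gm8615. The D-allele groups were higher by an LFC of 1.00 (SE 0.12) in vehicle and 1.11 (SE 0.12) with Dex, and the vehicle value was 1.07 without GRwt/wt vehicle 1.

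Only uniquely mapped reads were counted, so a read that fits both copies equally well is in neither count. The sum of the pair was computed as well, but it lacks such reads and need not stay constant if reads shift. In vehicle, Gm8615 and Gnpda1 together had 64.3 ± 8.78 CPM (n = 5) with the D allele and 45.9 ± 9.23 CPM (n = 6) without it, and with Dex 67.0 ± 11.1 (n = 6) and 43.0 ± 4.50 CPM (n = 6). In vehicle the D-allele mean minus the other mean was -12.9 CPM for Gm8615 and 31.4 CPM for Gnpda1, so that the gain of Gnpda1 exceeded the loss of Gm8615. Per kb of exon, Gm8615 had 11.8 ± 2.81 CPM in vehicle without the D allele, above the 7.62 ± 1.55 CPM of Gnpda1, while with the D allele it had 0.0843 ± 0.0631 against 14.9 ± 2.04 CPM per kb. The length used was that of all annotated exons joined, 1102 bases for Gm8615 and 4311 bases for Gnpda1. A single transcript can be shorter (771 bases for that of Gm8615 compared above), so the order without the D allele may depend on this length. Gm8615 made up 23% to 31.9% of the summed CPM in every library without the D allele and at most 0.324% in those with it. Whether reads moved between the pair was not tested, because no read alignments were used.

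**Figure D3:**
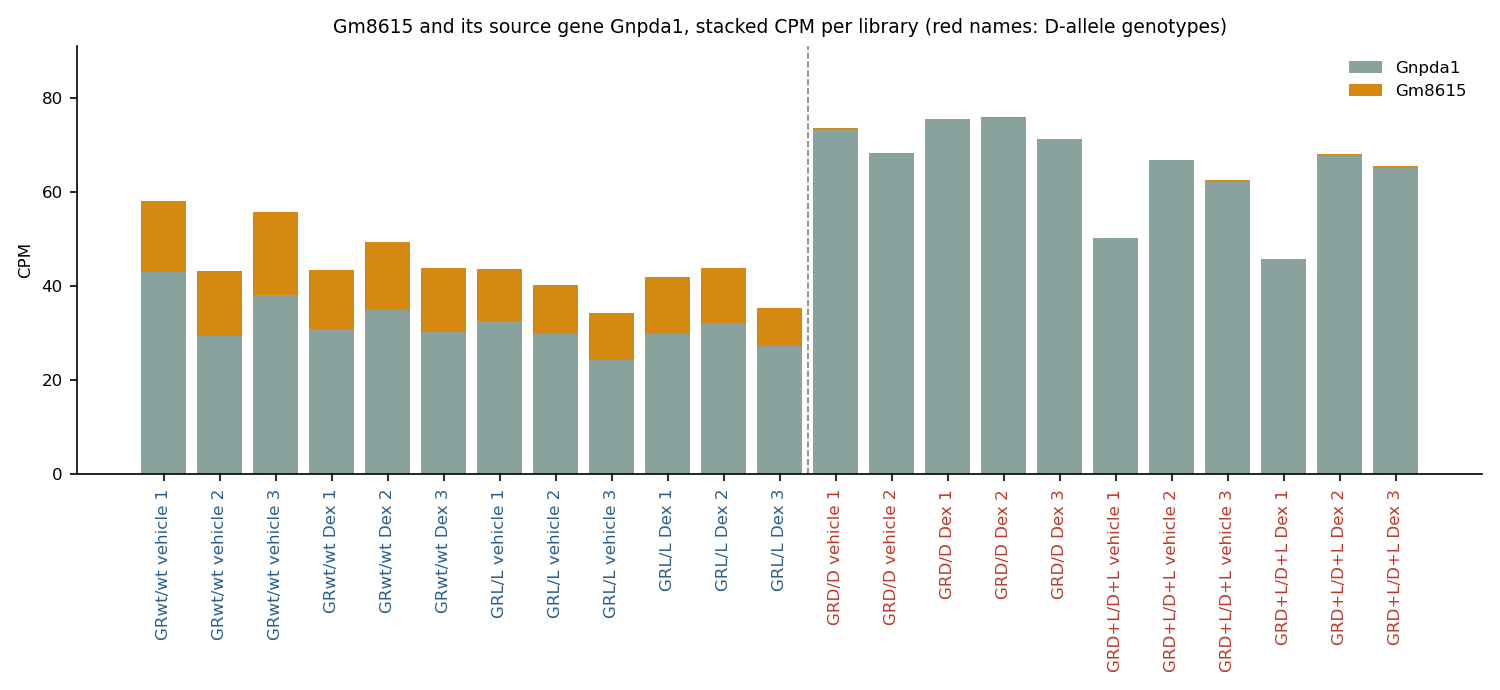
Stacked CPM of Gnpda1 and Gm8615 in each library, with D-allele libraries to the right of the dashed line. The Gm8615 part of the bar is visible in all 12 libraries on the left and nearly gone in the 11 on the right, where the Gnpda1 part is taller.

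Hmgb1 (ENSMUSG00000066551, chr5:149046702-149184489, minus strand), which spans Gm8615, did not share its pattern. It had 89.5 to 133 CPM, median 102, in the D-allele libraries. In the others it had 24.9 to 119 CPM, median 105, and the 24.9 CPM belonged to GRwt/wt vehicle 1. Without that library the lowest value was 97.6 CPM, in GRwt/wt Dex 1. The LFC of D-allele against other groups was 0.17 in vehicle and 0.07 with Dex, and -0.03 in vehicle without GRwt/wt vehicle 1. Exons of Hmgb1 overlap Mm2pr on the same strand and Uspl1 on the other, and since the strand setting of the counting is not given in the sources used here, reads of these genes may be mixed. The nearest tested gene to the left of Gm8615, Gm42788, had an LFC of -0.77 in vehicle (adjusted p = 0.650, edgeR), and the nearest to the right, Uspl1, had -0.04 (adjusted p = 0.916).

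Within 500 kb of the spans of the 5 genes lay 40 other tested genes, and 0 of them were called between the D-allele and the other groups in vehicle or with Dex, where 0.00635% and 0.0127% of all genes were. Those calls were Gm8615 itself, which had been chosen on this difference, and with Dex also its parent Gnpda1. At that share 40 genes of any kind would rarely hold a call, so the count says little about the neighbours. The lowest adjusted p from edgeR was 0.485 in vehicle and 0.266 with Dex, 2 neighbours had an unadjusted p under 0.05 in each treatment, against 9.02% and 8.01% of all genes, and DESeq2 called 0 in both. The 18 neighbours of Gm9625 all have zinc-finger gene names, and the nearest, Zfp273, had an LFC of 0.51 (adjusted p = 0.746) in vehicle.

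Gm9625 (ENSMUSG00000097906, chr13:67810246-67811200, plus strand) is annotated as a processed pseudogene, and its closest protein-coding match was Rplp0, the gene of ribosomal stalk protein P0, which sits at chr5:115559467-115563727 on the plus strand. It lies within the span of 4930525G20Rik, on the opposite strand and without a shared exon. Gm9625 and Rplp0 had 97.4% identity over 955 aligned bases with 24 mismatches. Another 4 tested pseudogenes matched Gm9625 at 90% identity or more over at least 60% of its length, namely Gm8730, Gm14165, Rplp0-ps1 and Gm6278, and so did a transcript of Gucd1. The following stretch of 150 bases, the one with the most differences between Gm9625 and Rplp0, is shown because it holds the letters by which a read can be placed on the copy or on the parent. Capitals mark bases at which Gm9625 and Rplp0 differ in the lines of those genes, and bases at which Gm8730 differs from Rplp0 in its line. The stretch is chr13:67810346-67810495 (plus strand) in Gm9625, chr5:115560787-115560936 (plus strand, coding part of exon 3) in Rplp0 and chr8:102865549-102865698 (minus strand) in Gm8730, all in GRCm38 from GENCODE M21 transcripts.
Gm9625: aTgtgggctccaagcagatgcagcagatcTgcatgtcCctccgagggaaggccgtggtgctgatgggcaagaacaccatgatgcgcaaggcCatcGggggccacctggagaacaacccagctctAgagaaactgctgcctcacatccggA
Rplp0: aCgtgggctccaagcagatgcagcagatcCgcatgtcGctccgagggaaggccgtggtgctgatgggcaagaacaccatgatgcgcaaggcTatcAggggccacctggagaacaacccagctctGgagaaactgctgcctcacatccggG
Gm8730: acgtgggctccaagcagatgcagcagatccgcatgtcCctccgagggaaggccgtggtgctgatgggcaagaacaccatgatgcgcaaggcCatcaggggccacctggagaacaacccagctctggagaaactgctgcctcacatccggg
Gm9625 differed from Rplp0 at 7 of the 150 positions, and Gm8730 shared 2 of these differences and had no other.

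Gm9625 did not separate D-allele cultures from the others. It was high in all 5 GRD/D libraries, at 106 and 106 CPM in vehicle and 111, 116 and 111 CPM with Dex. In GRD+L/D+L it was high in cultures 2 and 3, at 101 and 78.6 CPM in vehicle and 92.7 and 85.3 CPM with Dex, but low in culture 1, at 3.16 and 2.56 CPM. The GRwt/wt vehicle libraries had 5.63, 3.17 and 116 CPM, and the GRwt/wt Dex libraries 3.74, 2.62 and 2.93 CPM. All 6 GRL/L libraries were low, at 1.28 to 2.77 CPM. Thus 10 libraries were at 78.6 CPM or above and 13 at 5.63 CPM or below, with none between. The high value of GRwt/wt vehicle 3 had no counterpart among the GRwt/wt Dex libraries.

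The same libraries stood out for Gm8730, and the opposite way for Rplp0. Gm8730 had 239.9 to 268 CPM in GRD/D, 192 to 237 CPM in GRD+L/D+L cultures 2 and 3, and 256 CPM in GRwt/wt vehicle 3. Elsewhere it was lower, with 9.74 and 10.0 CPM in GRD+L/D+L culture 1, 7.13 to 9.44 CPM in GRL/L and 10.3 to 25.5 CPM in the remaining GRwt/wt. Gm6278 had the same order at a low level, with 0.345 to 1.48 CPM in those 10 libraries and at most 0.165 CPM elsewhere. Rplp0 had 799.6 to 938 CPM in GRD/D, 638 to 725 CPM in GRD+L/D+L cultures 2 and 3 and 902 CPM in GRwt/wt vehicle 3. It had 1328 and 1371 CPM in GRD+L/D+L culture 1, 1177 to 1231 CPM in GRL/L, 1362 to 1886 CPM in 4 GRwt/wt libraries and 2953 CPM in GRwt/wt vehicle 1. The Rplp0 values of the 10 libraries high in Gm9625 therefore did not overlap those of the other 13. For Gm14165, at 2.11 to 7.12 CPM, and Rplp0-ps1, at 0.425 to 2.80 CPM, the 10 libraries overlapped the other 13.

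The sum of Gm9625, Gm8730 and Rplp0 was 1145 to 1323 CPM in GRD/D, which spanned the 1274 CPM of GRwt/wt vehicle 3 and the 1186 to 1242 CPM of GRL/L. It lay below the 1375 to 1907 CPM of 4 GRwt/wt libraries and the 2984 CPM of GRwt/wt vehicle 1. In GRD+L/D+L the sum was 909 to 1064 CPM in cultures 2 and 3 and 1341 and 1384 CPM in culture 1. This sum also lacks reads that fit several of these copies equally well. The LFC of Rplp0 between the D-allele and the other groups was -0.77 (SE 0.26) in vehicle and -0.59 (SE 0.24) with Dex, given as a description since Rplp0 can share reads with Gm9625. Without GRwt/wt vehicle 1 the vehicle value was -0.50, and without GRwt/wt vehicle 3 it was -0.91. In that contrast GRD+L/D+L culture 1 counts with the D allele and GRwt/wt vehicle 3 without it.

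**Figure D4:**
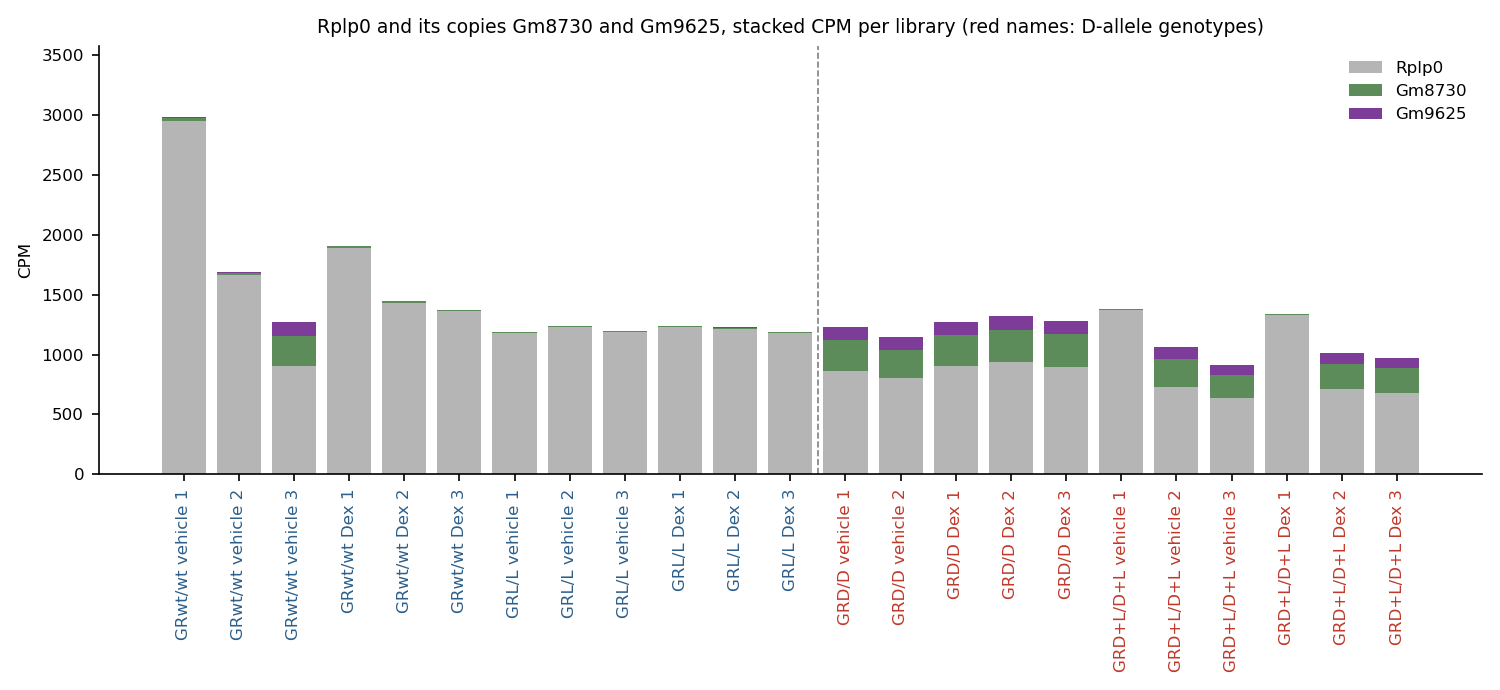
Stacked CPM of Rplp0, Gm8730 and Gm9625 in each library, with D-allele libraries to the right of the dashed line. The copies form a visible top part in all GRD/D bars, in GRD+L/D+L replicates 2 and 3 and in GRwt/wt vehicle 3, and these are the bars with the shortest Rplp0 part.

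Slc4a4 (ENSMUSG00000060961, chr5:88886818-89239653, plus strand) was higher in most D-allele libraries. GRwt/wt had 2.65, 6.82 and 23.9 CPM in vehicle and 14.4, 15.0 and 13.1 CPM with Dex. GRL/L was narrow, with 15.4, 14.0 and 15.3 CPM in vehicle and 15.8, 15.7 and 15.1 CPM with Dex. GRD/D had 31.9 and 25.4 CPM in vehicle and 66.8, 59.7 and 53.7 CPM with Dex. GRD+L/D+L had 26.5, 59.1 and 51.3 CPM in vehicle and 22.7, 73.0 and 59.9 CPM with Dex, with culture 1 lowest in both. The overlap over 23 libraries came from GRwt/wt vehicle 3 at 23.9 CPM, which exceeded the 22.7 CPM of GRD+L/D+L Dex 1. The D-allele LFC was 1.49 (SE 0.39) in vehicle and 1.91 (SE 0.38) with Dex, given as a description. Without GRwt/wt vehicle 1 the vehicle value was 1.26, and without GRwt/wt vehicle 3 it was 2.13. Within vehicle and within Dex the groups did not overlap for Slc4a4, as for 0.4% and 0.438% of all genes. Of the 5 genes, 2 had promoter windows of 300 bases in RefSeq for GRCm38.p6, Slc4a4 and Hmgb1 with 2 each. None of these held AGAACA, the hexamer that GR sites repeat, on either strand, and 19.0% of the 32851 promoter windows of that length did, so these 4 windows are like most others in this.

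Osr2 (ENSMUSG00000022330, chr15:35296098-35303305, plus strand) was lower with the D allele and lowest with D and L together. GRwt/wt had 52.7, 50.4 and 30 CPM in vehicle and 46.3, 100 and 57.3 CPM with Dex. GRL/L had 66.4, 86.8 and 52.1 CPM in vehicle and 62.4, 87.7 and 53.9 CPM with Dex. GRD/D had 35.1 and 25.4 CPM in vehicle and 30.1, 35.6 and 22 CPM with Dex. GRD+L/D+L had 12.2, 1.69 and 7.89 CPM in vehicle and 12.1, 2.13 and 8.03 CPM with Dex. Equally numbered vehicle and Dex libraries of GRD+L/D+L were close to each other, and the spread was between cultures. The only overlap was that of GRwt/wt vehicle 3 at 30 CPM with GRD/D. The D-allele LFC was -1.89 (SE 0.43) in vehicle and -2.20 (SE 0.40) with Dex, again as a description, and the vehicle value was -1.81 without GRwt/wt vehicle 1.

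No Dex effect on these genes passed the test, which had no term for the culture shared by vehicle and Dex libraries. Of the 19 pairs of gene and genotype that could be tested, 0 were called by edgeR, 0 had an unadjusted p under 0.05, and DESeq2 called 0. The lowest adjusted p was 0.58. Over all genes, edgeR called 0.159% in GRwt/wt, where DESeq2 called 286 and 2454 genes (15.6%) were under 0.05 before adjustment. It called 0.0% in each mutant genotype, where 154 genes of GRD/D, 43 of GRL/L and 54 of GRD+L/D+L had an unadjusted p under 0.05, with 2, 0 and 5 called by DESeq2. The largest LFC of the 19 was that of Slc4a4 in GRD/D, from 28.6 ± 4.58 CPM (n = 2) in vehicle to 60.1 ± 6.56 (n = 3) with Dex, at 1.07 (SE 0.59, adjusted p = 1.0). All 3 Dex libraries were above both vehicle libraries, but the effect was not called. The error of the fit pools the spread of all groups, which was wide in GRwt/wt vehicle (2.65 to 23.9 CPM) and GRD+L/D+L Dex (22.7 to 73.0 CPM). The change of Slc4a4 in GRwt/wt was 0.34 (SE 0.52, adjusted p = 0.773), and it was -0.13 without GRwt/wt vehicle 1 and 1.61 (adjusted p = 0.0612) without GRwt/wt vehicle 3. For Gm9625 in GRwt/wt no test is given, because its vehicle mean of 41.6 ± 64.5 CPM (n = 3) came from a library used in the choice.

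The L change was compared in cells with and without D. Osr2 fell in GRD+L/D+L against GRD/D with Dex, from 29.2 ± 6.82 CPM (n = 3) to 7.43 ± 5.03 (n = 3), at an LFC of -1.98 (SE 0.57, adjusted p = 0.0456, edgeR). In this contrast 3.61% of all genes were called. In vehicle the levels were 30.2 ± 6.84 (n = 2) and 7.27 ± 5.30 CPM (n = 3), and the LFC of -2.06 (SE 0.61, adjusted p = 0.104) was not called, where 1.02% of all genes were. Without GRwt/wt vehicle 1 it was (adjusted p = 0.0438). All GRD+L/D+L libraries were below all GRD/D libraries in both treatments. The call with Dex was near the threshold, since leaving out single libraries gave adjusted p from 0.019 to 0.154, and 15 of these 23 fits ended it. So did sex as a covariate (0.112), a fit with only the groups compared (0.0609) and replicate number as a block (0.0541). By Xist and Y-linked counts all GRD+L/D+L libraries were male, while GRD/D Dex 1 and 2 were female and Dex 3 male. Sex and L are thus partly confounded in this contrast. Summed macrophage markers were also lower in GRD+L/D+L (7.13 to 112 CPM) than in GRD/D (361 to 2410 CPM), and their part in the difference was not tested.

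Without D, no effect of L on Osr2 was called. GRL/L against GRwt/wt gave 0.62 in vehicle (SE 0.54, adjusted p = 0.413), where 7.78% of all genes were called, and with Dex the GRL/L mean of 68.0 ± 17.6 CPM (n = 3) lay beside 67.9 ± 28.3 CPM (n = 3) in GRwt/wt, where 2.59% were called. The difference between the effects of L with and without D was -2.69 in vehicle (SE 0.82, adjusted p = 0.227) and -1.98 with Dex (SE 0.78, adjusted p = 0.298), so it was not called in either (0.0508% and 0.229% of all genes were). These tests of the difference were added after seeing the data, and without GRD+L/D+L culture 1 their adjusted p was 0.0868 and 0.139. The other genes had LFCs of -0.91 to 0.67 in the 15 L comparisons tested, and none was called (lowest adjusted p = 0.369).

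**Figure D5:**
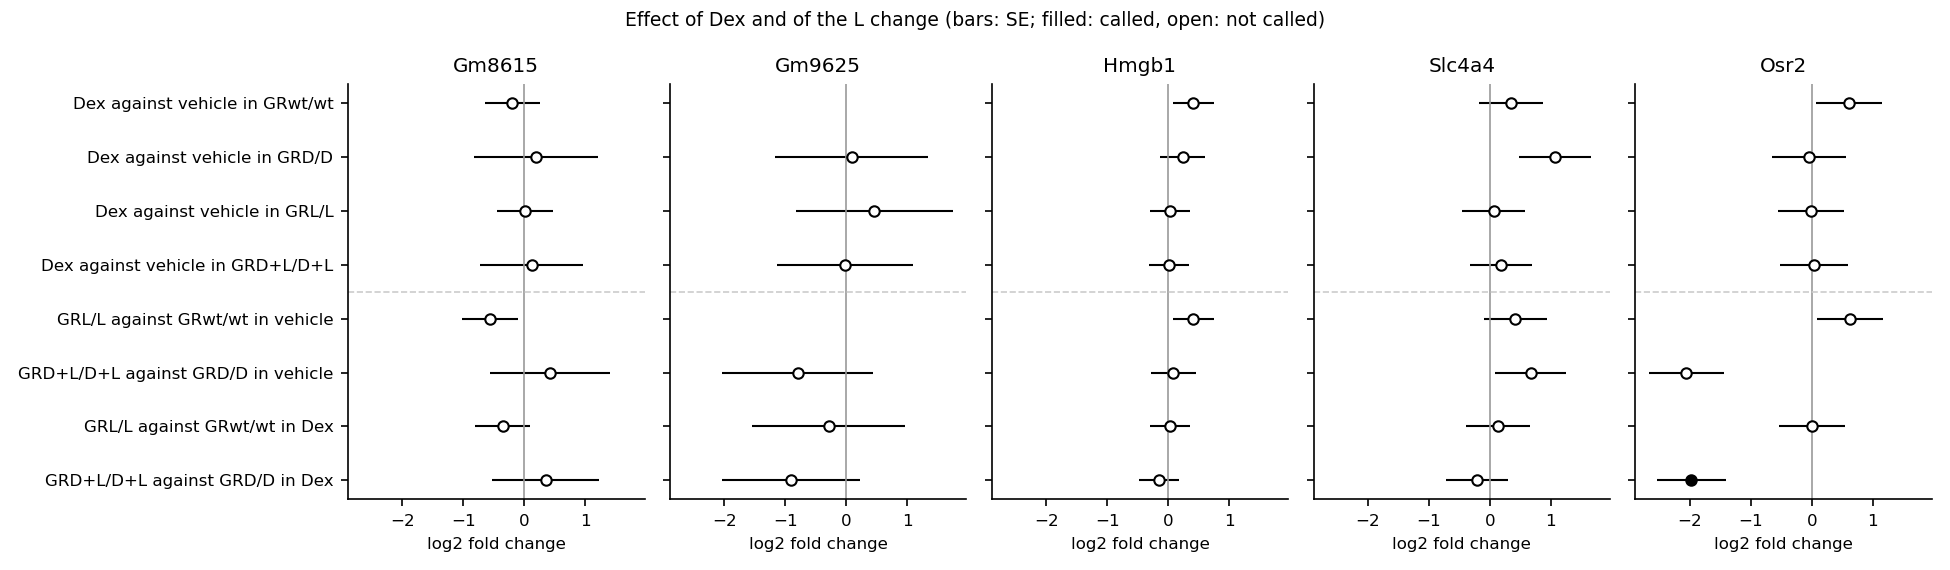
LFC with SE of each gene for Dex in the 4 genotypes (above the dashed line) and for L with and without D (below), filled where called. The filled point is Osr2 in GRD+L/D+L against GRD/D with Dex at -1.98, and both comparisons of Gm9625 that use GRwt/wt vehicle are left out.

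Genes related to the members by function were read against all genes, of which edgeR called 0.00635% in vehicle and 0.0127% with Dex, DESeq2 called 38 and 108, and 9.02% and 8.01% had an unadjusted p under 0.05. These shares are for the D-allele against the other groups, and the edgeR calls were Gm8615 and, with Dex, also Gnpda1. Of the SLC4 bicarbonate transporters and acid-base genes, 19 of 23 were tested, and edgeR and DESeq2 called 0 in vehicle and 0 with Dex, with 1 and 0 genes at an unadjusted p under 0.05. Their median LFC was -0.14 in vehicle and -0.17 with Dex, against -0.03 and -0.00 over all genes. Of the palate and joint mesenchyme genes, 19 of 21 were tested and edgeR called 0, while 4 in vehicle and 9 with Dex had an unadjusted p under 0.05. DESeq2 called Msx1 in vehicle and Dkk2, Msx1 and Tfap2b with Dex. The median of this list was -0.63 in vehicle and -0.85 with Dex. Of the high-mobility-group genes and HMGB1 receptors, 14 of 15 were tested, edgeR and DESeq2 called 0 in either treatment, 3 and 2 had an unadjusted p under 0.05, and the medians were -0.17 and -0.09.

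Some genes of these lists were called for L, in contrasts where 7.78% (GRL/L vehicle), 2.59% (GRL/L Dex), 1.02% (GRD+L/D+L vehicle) and 3.61% (GRD+L/D+L Dex) of all genes were. Every vehicle call named here was lost with only the groups compared in the fit, with adjusted p from 0.058 to 0.317. Slc16a3, a lactate exporter, fell in GRL/L against GRwt/wt in vehicle by an LFC of -1.87 (SE 0.37, adjusted p = 0.00214, edgeR) and in GRD+L/D+L against GRD/D by -2.76 in vehicle and -2.66 with Dex (adjusted p = 0.00398 and 0.00105). Slc9a3r1, a scaffold of membrane transporters, fell in GRL/L by -1.94 in vehicle and -1.35 with Dex. Summed macrophage markers also differed between these groups with Dex (435 to 1074 CPM in GRL/L, 19.5 to 137 CPM in GRwt/wt). Their part in the GRL/L differences was not tested. Car5b, a mitochondrial carbonic anhydrase, fell in GRL/L vehicle (-1.38), and Car9, a carbonic anhydrase at the cell surface, fell in GRD+L/D+L vehicle (-2.60). Of the mesenchyme list, Msx2, a homeobox factor, fell in GRL/L in vehicle (-3.05) and with Dex (-2.85, adjusted p = 0.037). With replicate number as a block its Dex call was lost (adjusted p = 0.0529, edgeR). Shox2, a homeobox factor of limb and palate, fell in GRD+L/D+L in vehicle (-1.62) and with Dex (-1.56). The secreted factors Wnt5a and Sema3a rose in GRL/L vehicle by 1.30 and 1.54. Car5b lost its call without GRwt/wt vehicle 1 (adjusted p = 0.0554), and Wnt5a was below the fold threshold without GRwt/wt vehicle 1 and 3 (LFC 0.93), whereas Sema3a had 1.03 without the former library and 2.14 without the latter. The GRL/L vehicle LFC of Slc16a3 was -1.25 without GRwt/wt vehicle 3, and that of Msx2 was -4.03 without GRwt/wt vehicle 1 and 3. In each of the 4 L contrasts 1 to 3 genes of the acid-base list and 1 to 3 of the mesenchyme list were called, and 0 of the high-mobility-group list. Of the 14 tested genes of the last list, 1 (GRL/L vehicle), 4 (GRL/L Dex), 1 (GRD+L/D+L vehicle) and 2 (GRD+L/D+L Dex) had an unadjusted p under 0.05. Over all genes the shares under 0.05 were 37.1%, 22.7%, 15.5% and 23.8% in that order. In that list DESeq2 called Cxcr4 in both Dex contrasts and Ager in GRD+L/D+L against GRD/D with Dex. By edgeR, Dex called 0 genes of any list in any genotype, where 0.159% of all genes were called in GRwt/wt and 0.0% in each mutant genotype. At these shares lists of this size would rarely hold a call. At most 3 genes of a list had an unadjusted p under 0.05, all in GRwt/wt, against 15.6% of all genes there. DESeq2 called Cxcr4 in GRwt/wt.

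Patterns across libraries were compared with those of all tested genes by Pearson's r on the log2 scale, as a description over 23 libraries that share cultures. For Gm8615 the most alike gene was Gnpda1 (r = -0.874), followed by Eln (0.858), the gene of elastin, Rhbdf2 (0.844), Fes (0.822) and Gpat2 (0.819). For Gm9625 it was its sister copy Gm8730 (0.994), followed by the pseudogene Wsb2-ps (0.964), Gm6728 (-0.961), Gm10819 (0.937) and Gm6278 (0.935). For Slc4a4 it was Nln (0.899), the gene of the peptidase neurolysin, then Slc25a22 (-0.898), Rplp0 (-0.888), Hs2st1 (0.880) and Crlf2 (-0.880). For Osr2 it was Nos1 (0.960), a nitric oxide synthase, then Raver2 (0.945), Ntrk2 (0.930), Prrg3 (0.929) and Aff3 (0.928). For Hmgb1 it was Phf14 (0.983), with Hnrnpr, Ddx52, Pus10 and Tra2b at 0.977 or more, and these rested on GRwt/wt vehicle 1, without which Phf14 had 0.822.

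Several of these genes lie on chromosome 5, with Slc4a4, Hmgb1, Gm8615 and Rplp0. Chromosome 5 held 6.49% of the tested genes. Of the 50 genes most alike in pattern, 18% were on chromosome 5 for Gm9625, which itself lies on chromosome 13, 14% for Slc4a4, 12% for Gm8615, 8% for Osr2 and 4% for Hmgb1. Without GRwt/wt vehicle 1 the shares were 26%, 20%, 14%, 8% and 6%. Genes on a chromosome are not independent of each other, and these shares are given without a test.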

How the data were processed

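Total RNA of the 23 MEF libraries was prepared with TruSeq kits and, per the methods for 10 nM Dex, sequenced on a NovaSeq instrument. Per the submitters' processing notes and methods, the authors mapped reads to mm10 (GRCm38) with HISAT2 2.1.0 and deposited raw counts per Ensembl gene from featureCounts 2.0.0, using uniquely mapped reads. The strand setting is not given in the sources used here. Of 55487 identifiers, 55227 occur in GENCODE M21. Unique mapping makes counts of near-identical copies uncertain.

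Counts were tested with edgeR 4.0.16 (R 4.3.3): TMM scaling, filterByExpr, 1 mean per group over all 23 libraries, quasi-likelihood F test, Benjamini-Hochberg adjustment over 15748 genes, and a call where adjusted p reached 0.05 or less and the LFC 1 or more in size (prior count 0.125). Patterns and gaps used log2 CPM with a prior count of 0.5. Gm8615 ratios used exact 95% Clopper-Pearson intervals. Transcripts were compared with blastn 2.17.0. The fit was tested on simulated data. The p-values measure the spread between libraries of a group. They treat all libraries as independent, without a term for the culture, though vehicle and Dex libraries of a culture share cells. Low counts limit Gm8615 in D-allele libraries and genes below a few CPM, such as Gm6278 and Gm42788. The members, lists and rule for named genes (members, parent genes and copies, the 5 most alike genes, neighbours, called list genes) were chosen with earlier results of these data known. Groups follow the genotype and treatment labels.

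Equally numbered vehicle and Dex libraries deviated together in GRL/L (r = 0.322, 0.644 and 0.631) and GRD+L/D+L (0.887, 0.788 and 0.652). In GRwt/wt they did so for number 1 (0.548) but not for the others (0.0266 and -0.0265). There vehicle 2 went with Dex 3 (0.544) and vehicle 3 with Dex 2 (0.375). GRD/D had 0.283 and -0.199, and vehicle 2 went with Dex 3 (0.452). With 2 vehicle libraries in GRD/D, the deviations of these mirror each other. Alternatives were DESeq2 1.42.0, other scalings, filters and prior counts, sex (read from Xist and Y-linked counts) as a covariate, the replicate block, fits of only the groups compared, and leaving out libraries.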

Additional observations from a re-analysis of the deposited data

Results flagged for a closer look

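Within each treatment, the D-allele libraries and the other libraries were each checked for a library far from the rest by Dixon's test, over 20 sets of 5 or 6 libraries in which chance flags about 1 in 20. A library stood out in 6 of the 20 sets. For Gm9625 the 116 CPM in GRwt/wt vehicle 3, far above the others in vehicle, had chosen the gene and restates that choice, and 5 of the other 19 sets held such a library. Gm9625 had 3.16 CPM in GRD+L/D+L vehicle 1 and 2.56 CPM in GRD+L/D+L Dex 1, far below the other D-allele libraries. Slc4a4 was far below the other D-allele libraries in GRD+L/D+L Dex 1, at 22.7 CPM. Hmgb1 was far below the others in GRwt/wt vehicle 1, at 24.9 CPM. Gm8615 in GRL/L Dex 3, at 8.14 CPM, was the lowest library without the D allele with Dex. The libraries of GRD+L/D+L culture 1 in vehicle and Dex share their cells, so their values for Gm9625 count 1 culture under both treatments, and the sets are not independent as the chance rate assumes. These sets join genotypes, so a difference between genotypes can widen or narrow them.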

How the results depend on the processing

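Alternatives marked by an asterisk were chosen after seeing the data. Genes called for the D allele numbered 1 in vehicle and 2 with Dex. In vehicle the count was 38 with DESeq2, 2 without a filter, 3 with the replicate block, 2 with RLE scaling, 2 with sex as covariate, 57 without culture 1 of GRD+L/D+L*, 18 when GRwt/wt vehicle 1 and 3 were left out, and 1 to 15 on leaving out single libraries (15 lacking GRwt/wt vehicle 3). With Dex it was 7 with at least 10 counts in every library, 108 with DESeq2, 9 without a filter, 17 with only the groups compared, 5 with the replicate block, 182 without that culture*, 71 without those GRwt/wt libraries, and 2 to 29 on leaving out single libraries (29 without GRwt/wt vehicle 1). Dex calls in GRwt/wt (25) became 286 with DESeq2, 0 with only the groups compared, 199 with the replicate block, 47 without culture 1 of GRD+L/D+L*, and 14 to 374 on leaving out single libraries. In GRD/D (0) they became 1 with at least 10 counts, 2 with DESeq2, 2 with only the groups compared, 7 with the replicate block, 2 without GRwt/wt vehicle 1 and 3, and 0 to 2 on leaving out single libraries, and DESeq2 called 5 in GRD+L/D+L (0 by edgeR). GRL/L against GRwt/wt called 1225 genes in vehicle, 0 with only the groups compared and 791 to 2674 on leaving out single libraries. With Dex it called 408, then 271 with at least 10 counts, 770 with DESeq2, 744 with only the groups compared, 1193 without GRwt/wt vehicle 1 and 3, and 148 to 952 on leaving out single libraries. GRD+L/D+L against GRD/D called 160 in vehicle, then 469 with DESeq2, 105 without a filter, 0 with only the groups compared, 309 without culture 1*, 685 without GRwt/wt vehicle 1 and 3, and 7 to 470 on leaving out single libraries. With Dex it called 568, then 1044 with DESeq2, 1348 without those GRwt/wt libraries, and 260 to 1148 on leaving out single libraries. Genes without overlap between D-allele and other libraries numbered 3, then 2 with RLE scaling (Caprin1 overlapped, gap -0.018), 5 without a filter, 133 without GRwt/wt vehicle 1 and 3 and culture 1 of GRD+L/D+L* (the libraries through which Gm9625, Slc4a4 and Osr2 overlapped are among those left out, which fixes their separation), and 3 to 17 on leaving out single libraries. By Spearman's rho the most alike gene was Rhbdf2 for Gm8615 (0.839), Pkig for Gm9625 (0.958), Tent5a for Hmgb1 (0.923) and Lima1 for Slc4a4 (0.912). Without GRwt/wt vehicle 1*, it was Khdrbs1 for Hmgb1 (0.882) and Gnpda1 for Slc4a4 (0.897). The direction turned for Hmgb1 in the vehicle D-allele contrast, -0.03 to 0.36 on leaving out single libraries (lowest without GRwt/wt vehicle 1) and -0.017 without 1 and 3, and for Slc4a4 with Dex in GRwt/wt, -0.13 to 1.61 (without GRwt/wt vehicle 1 and 3 in turn). The replicate block ended the calls of Osr2 (adjusted p = 0.0541) and Msx2 (0.0529) with Dex and gave calls for Dkk2 (0.00635) and Fgf10 (0.0432) with Dex in GRwt/wt, and changed no other call of a member or listed gene. Equal numbers do not pair cultures of different genotypes, and they do not pair all vehicle and Dex libraries of GRwt/wt and GRD/D. The causes of these changes were not tested. Near-identical copies limit Gm8615, Gnpda1, Gm9625 and Rplp0, and counts of 0 to 5 limit Gm8615 in D-allele libraries.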
